A study of Mus musculus with 10 samples.

Results

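Zinc finger protein genes of the mouse Zfp series were examined in RNA sequencing of cortex from 5 wt/wt mice and 5 dTPR/dTPR mice. The dTPR allele removes the TPR1 domain of STI1, the co-chaperone encoded by Stip1 that links HSP70 and HSP90. The dTPR/dTPR mice carry it on both copies, and both groups are on a C57BL/6 background. Ages ran from 442 to 663 days in wt/wt and from 541 to 630 days in dTPR/dTPR animals. Each library came from a small piece of the cortex of 1 hemisphere, so it holds all the cell types of that piece. The labels number the mice as separate animals. They do not state how or in which cells the allele was made, beyond calling the mice transgenic.

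Counts in these libraries fall mostly on IDs that face the exons of another gene, which lies on the other strand. Each counted gene ID was therefore credited to the gene with 90% or more of the facing exon bases, and such counts were summed per gene. Genes named Zfp followed by a digit were kept where the summed count averaged 5 or more over the 10 libraries. This left 40 genes, of 67 Zfp genes with an assigned ID and 417 Zfp genes in the annotation (GENCODE M21, build GRCm38). Of the 67 genes, 11 had no count in any library. Over the whole series 2654 of 7385 opposite-strand genes reached the same level. The 40 genes were thus selected on their mean summed count, so the levels below are a description. The genotype comparison was not used to choose them.

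The symbol Zfp groups genes by a protein motif, not by one pathway. In the common C2H2 zinc finger a pair of cysteines and a pair of histidines hold a zinc ion, and the fold between them can read a few bases of DNA. In the CCCH finger 3 cysteines and 1 histidine do so, and such proteins often bind RNA. Many C2H2 proteins also carry a KRAB domain, which recruits the corepressor TRIM28 and, through it, the histone methyltransferase SETDB1, and much of this set is known for silencing transposable elements. Other members without KRAB activate promoters, act in neural development or take part in RNA decay and ribosome assembly.

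Coding stretches of 5 members are printed to show what the motif looks like and how alike the fingers of different genes are. Each is given 5′ to 3′ on the gene's own strand, with the codons of the zinc-holding cysteines and histidines in capitals, read from GENCODE M21 transcripts. The Zfp652, Zfp90 and Zfp36l1 stretches are the first finger of each protein, C2H2 in Zfp652 and Zfp90 and CCCH in Zfp36l1. The Zfp68 and Zfp248 stretches are the coding bases that face a short counted ID in each gene, and each holds 1 whole finger.
Zfp652, chr11:95749986-95750051, plus strand: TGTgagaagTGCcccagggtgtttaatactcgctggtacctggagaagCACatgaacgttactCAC
Zfp90, chr8:106424284-106424346, plus strand: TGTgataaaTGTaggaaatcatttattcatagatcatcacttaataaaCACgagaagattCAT
Zfp36l1, chr12:80110189-80110248, minus strand: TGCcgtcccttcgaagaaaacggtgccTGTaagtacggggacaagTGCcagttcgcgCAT
Zfp68, chr5:138606699-138606781, minus strand: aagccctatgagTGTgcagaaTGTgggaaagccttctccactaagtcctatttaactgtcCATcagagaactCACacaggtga
Zfp248, chr6:118429170-118429252, minus strand: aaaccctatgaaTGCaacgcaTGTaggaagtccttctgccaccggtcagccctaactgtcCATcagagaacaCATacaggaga

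The Zfp68 and Zfp248 stretches come from different chromosomes and were identical at 59 of 83 bases (71.1%). The IDs facing them, Gm24082 and Gm25953, are both annotated as miRNA genes and are exactly as long as these stretches. Fingers of this kind recur within and between Zfp genes, so the counts of Zfp68 and Zfp248 are uncertain wherever the authors' counting split or dropped reads that match several of them.

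Of the 40 genes, 38 have a coding sequence. The exceptions are Zfp85os, a processed transcript, and Zfp862-ps, a pseudogene. A search of the translated sequences for the C2H2 spacing found a median of 9.5 fingers per protein, from 0 to 33, beside a median of 10 in the 356 other Zfp genes with a coding sequence. Zfp142 had the 33. Zfp703 and Zfp36l1 had 0 matches to C2H2, and Zfp36l1 had 2 CCCH fingers. A KRAB pattern was matched by 10 of the 38 proteins (26.3%) and by 123 of the 356 others (34.6%). These shares are lower limits, since a fixed pattern was searched in a single transcript of each gene and can miss KRAB domains. Chromosome 7 held 9 of the 40 genes, and chromosomes 8 and 13 held 5 each. On chromosome 13, Zfp459 (67405709 to 67421418), Zfp874b (67471513 to 67484258), Zfp738 (67658685 to 67687071) and Zfp85os (67729262 to 67756838) lie close together.

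Library totals ran from 667751 to 927242 counts, so that 3 counts were worth 3.24 to 4.49 CPM, the counts scaled to a common library total. The reads carry no molecular identifiers and may repeat a molecule, so the counting errors quoted here are lower limits. The ID of Stip1 itself held between 0 and 8 counts in either group and no ID faces Stip1, so these counts cannot check the allele. Of 12 cortical excitatory neuron markers 3 were measured, and their summed level was 1948 to 8130 CPM in wt/wt and 2214 to 4731 CPM in dTPR/dTPR libraries. Of 12 striatal markers 4 were measured, with sums of 803 to 5306 CPM in wt/wt and 388 to 2189 CPM in dTPR/dTPR. Of 10 oligodendrocyte markers 2 were measured, with sums of 842 to 1581 and 1375 to 2291 CPM. Of 8 astrocyte markers 3 were measured, with sums of 332.5 to 518.7 and 262.4 to 500.6 CPM, and they differed in direction. Their log2 fold changes, dTPR/dTPR over wt/wt, were -0.87 in Hes5 (unadjusted p = 0.0063, adjusted p = 0.999, edgeR), 1.07 in Slc1a2 and 0.20 in Aldh1l1. Of 10 vessel cell markers 3 were measured, with sums of 191.7 to 754.9 and 182.3 to 298.2 CPM. The blood marker Alas2 was at 0 in every library.

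How a Zfp gene was measured differed greatly between members. The bases facing a counted ID ran from 39 in Zfp346, which lies opposite the short ID Gm17617, to 6222 in Zfp90, with a median of 539.5. The main ID, the facing ID with the most counts, was protein-coding for 15 members, antisense for 10 and lincRNA for 8. It was a pseudogene for 3, a miRNA for 2, and of other classes for 2. The facing bases included coding sequence in 19 members and were wholly coding in 4, Zfp703, Zfp710, Zfp459 and Zfp248. They reached the annotated start of the gene in 10 members and its end in 6, but in Zfp652, Zfp507 and Zfp341 the ID at the start averaged 0.0 counts. All counts of an ID went to the gene it faces, also where the 2 share few bases. In 14 members at least 90% of the main ID's exon bases faced the gene. In 7 members, Zfp697, Zfp710, Zfp800, Zfp575, Zfp143, Zfp646 and Zfp961, under 10% did, and reads from elsewhere in that ID are included in their counts.

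The genes' own IDs held little. The mean counts at the IDs assigned to the 40 genes summed to 5957 per library, and those at their own IDs to 687. The genes were kept for counts at facing IDs, with no limit on their own IDs, so the rule itself favours this excess. Of the Zfp genes left out, Zfp422-ps averaged 72.7 at its own ID and 0.0 at the facing one. Zfp974 averaged 28.1 and 0.9, while Zfp672 averaged 1.5 and 4.7. Counts of the IDs Zfp784 and Zfp865 are in both sums. For 18 of the 40 the own ID averaged under 1 count. Zfp36l1 averaged 693 counts at the facing ID and 0.0 at its own, and Zfp703 averaged 563 and 0.0. The own ID held more than the facing IDs in 5 genes. Of these, Zfp865 averaged 98.0 at its own ID and 59.9 at the facing one, Zfp248 averaged 41.4 and 7.6, and Zfp646 averaged 29.3 and 9.4. Zfp689 averaged 15.1 and 8.5, and Zfp68 averaged 12.3 and 7.1. The strand of the reads was inferred from positions, and an RNA made from the facing ID itself would be counted in the same place.

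**Figure D1:**
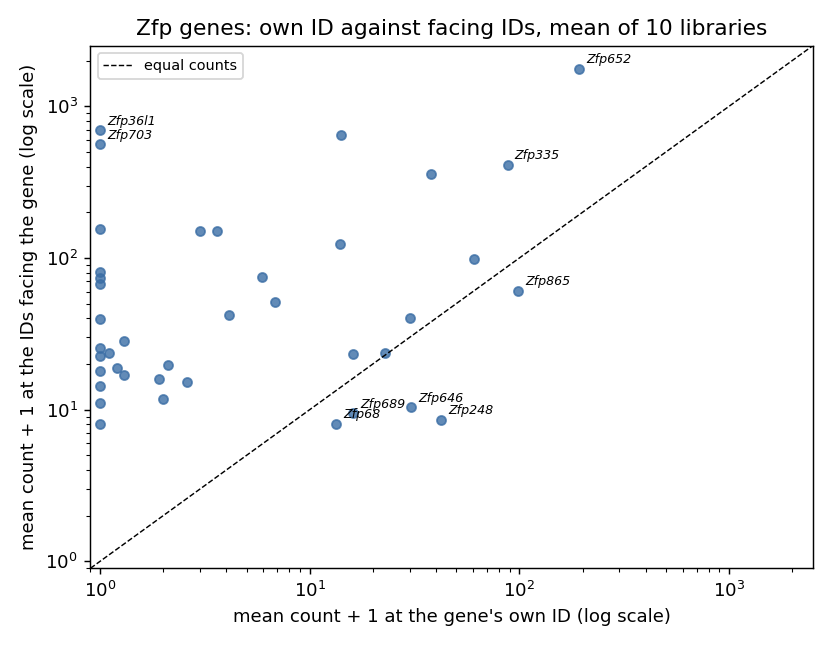
Mean count plus 1 over 10 libraries at the IDs facing each of the 40 Zfp genes (vertical, log scale) against that at the gene's own ID (horizontal, log scale), 1 point per gene. Most points lie above the dashed line of equal counts, those at the left edge have an own ID at 0, and Zfp865, Zfp646, Zfp689, Zfp248 and Zfp68 lie below it. The genes shown were kept for their counts at facing IDs, which favours points above the line.

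The pair Zfp784 and Zfp865 show the difficulty most directly. Zfp784 (chr7:5034439-5038446, minus strand) and Zfp865 (chr7:5020376-5036768, plus strand) overlap tail to tail over 2041 exon bases, and each was counted at the other's ID. The 98.0 mean counts given to Zfp784 are those of the ID Zfp865, only 20.7% of which faces Zfp784. Zfp85os is in a like position, since its counts are those of the ID Zfp85, of which 14.4% faces it. Zfp955b was counted at Zfp422-ps, an unprocessed pseudogene that lies wholly opposite its untranslated exon bases.

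In all, the 40 genes held 0.743% ± 0.06 of the counts in wt/wt and 0.756% ± 0.0953 in dTPR/dTPR libraries (SD, n = 5 each). The lowest share was 0.599% in dTPR animal 2 and the highest 0.853% in dTPR animal 3, so the spread within the dTPR group spanned the wt range of 0.657% to 0.8%. A few genes made up most of this share. Zfp652 alone held 29.8% of the members' counts, and the top 6 genes held 74.7%.

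Zfp652, a transcriptional repressor with 7 C2H2 fingers and no KRAB match, lies on chromosome 11 (95712673 to 95835115, plus strand). Abi3 and Zfp652os face 2974 bases of its untranslated exons, and Zfp652os averaged 0.0 counts. Its levels were 2344, 1572, 2186, 2290 and 2295 CPM in wt animals 1 to 5, and 2737, 870, 3011, 2303 and 2679 CPM in dTPR animals 1 to 5. Animal 2 was the lowest of its group in both genotypes, the other dTPR animals lay at or above most wt animals, and the groups overlapped. The log2 fold change, dTPR/dTPR over wt/wt, was 0.12 ± 0.26 (SE, adjusted p = 0.999, edgeR quasi-likelihood test with Benjamini-Hochberg adjustment). Without dTPR animal 2, the lowest of its group, it was 0.34 with an unadjusted p of 0.0186 (edgeR). No member then had an adjusted p under 0.978 (edgeR). With the animal number as a replicate block the log2 fold change of Zfp652 was 0.01.

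Zfp36l1 encodes a CCCH protein that binds AU-rich elements in mRNA and promotes their decay. It was counted over 1672 bases, mostly untranslated, opposite Gm26669. Its levels were 1153, 1040, 883, 770 and 480 CPM in wt and 708, 1035, 659, 1025 and 943 CPM in dTPR animals 1 to 5. The wt animals spread more widely than the dTPR animals and enclosed them, and the group means were 865 ± 260 and 874 ± 179 CPM (SD, n = 5). The 95% interval of the difference, 0.722- to 1.38-fold, leaves out any change of 2-fold.

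Zfp106 encodes an RNA-binding zinc finger protein needed by motor neurons, and was counted over 2719 bases, mostly coding, opposite Gm26899. Its levels were 852, 779, 926, 1108 and 699 CPM in wt and 750, 711, 740, 798 and 826 CPM in dTPR animals 1 to 5. All 5 dTPR animals lay below the wt mean of 873 CPM, but inside the wt range. The log2 fold change was -0.20 ± 0.15 with a 95% interval of 0.698- to 1.09-fold, and this SE was the smallest of the members tested.

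Zfp703 encodes a corepressor that acts in breast epithelium and the developing hindbrain, and was counted over 459 coding bases opposite Gm45371. Per kilobase of facing exon it was the member with the highest level, at 1547 CPM, ahead of Zfp346 with 782, Zfp652 with 749 and Zfp36l1 with 520. The value of Zfp346 rests on only 39 facing bases. Levels of Zfp703 were 787, 656, 608, 824 and 656 CPM in wt and 735, 434, 1037, 773 and 592 CPM in dTPR animals 1 to 5. The dTPR group held both the lowest and the highest animal, animals 2 and 3, as it did for Zfp652.

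Zfp335 encodes a component of a histone H3K4 methyltransferase complex, and mutations in it are known to cause microcephaly. It was counted opposite Pcif1 and Zfp335os, and 16.9% of Pcif1, the ID with most of these bases, faces it. Its levels were 455, 568, 493, 415 and 552 CPM in wt and 680, 515, 538, 448 and 465 CPM in dTPR animals 1 to 5. Apart from dTPR animal 1 the dTPR animals lay inside the wt range, and the 95% interval was 0.821- to 1.35-fold. Zfp142, whose human counterpart is known for a neurodevelopmental disorder, averaged 434 ± 102 CPM in wt and 479 ± 73.0 CPM in dTPR, and 29.8% of its main ID Plcd4 faces it.

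**Figure D2:**
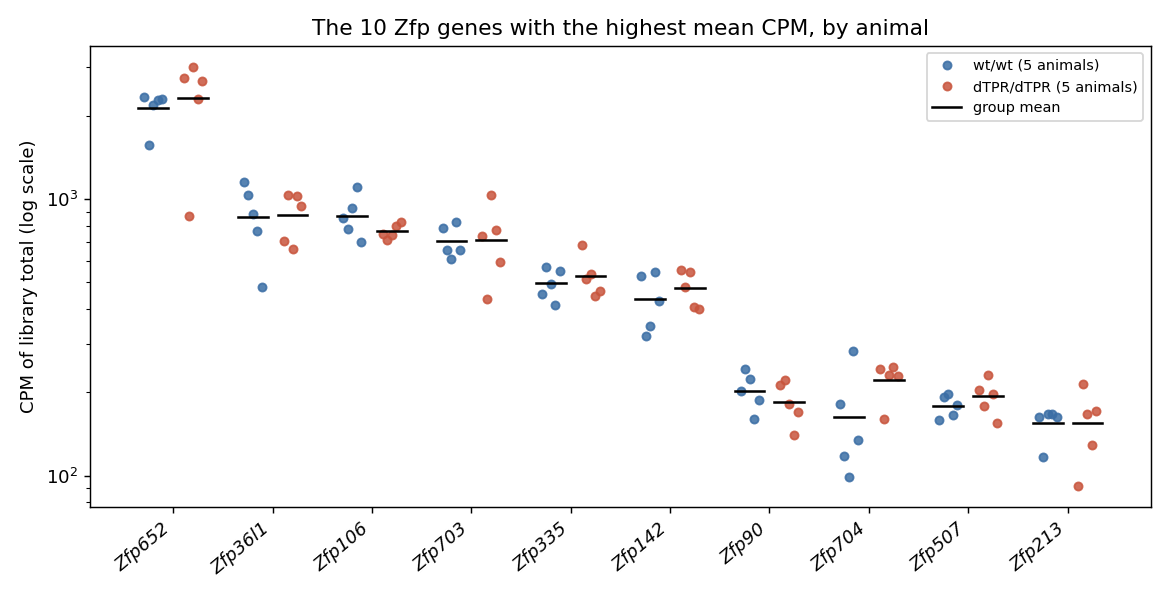
CPM of the 10 Zfp genes with the highest mean (vertical, log scale) in each of 5 wt/wt and 5 dTPR/dTPR animals, with points of a group in the order of animal number and the group mean as a bar. The groups overlap in every gene, and dTPR animal 2 stands low at 870 CPM in Zfp652 and 161 CPM in Zfp704.

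The other abundant members were close to level between the genotypes except Zfp704. Zfp90, a KRAB protein with 13 fingers, averaged 203 ± 31.8 CPM in wt and 185 ± 32.8 CPM in dTPR. Zfp507 averaged 179 ± 16.4 and 194 ± 29.0 CPM, and Zfp213 averaged 155 ± 21.8 and 155 ± 46.7 CPM (SD, n = 5). Their 95% intervals lay within 0.660- to 1.43-fold.

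Zfp704 was counted over 2525 untranslated exon bases opposite C030034L19Rik. Its levels were 182, 118, 98.6, 283 and 134 CPM in wt and 243, 161, 231, 247 and 228 CPM in dTPR animals 1 to 5. Of the dTPR animals 4 lay above every wt animal except wt animal 4. The log2 fold change was 0.46 ± 0.26, with an unadjusted p of 0.0929 and an adjusted p of 0.999 (edgeR). It was 0.73 with an unadjusted p of 0.00702 without wt animal 4. The wt animals with the lowest Zfp704, animals 2 and 3, also had the highest mean log2 CPM of the striatal markers, 9.53 and 10.2, against 6.01 to 8.47 in the dTPR animals. Wt animal 4, with the highest Zfp704 of all 10 animals, had a striatal level of 9.05, also above every dTPR animal. The log2 fold change was 0.32 with the striatal level in the model and 0.21 without wt animals 2 and 3, and the part of striatal tissue in it was not tested. It was 0.52 with age in the model, 0.52 with the animal number as a replicate block and 0.57 without dTPR animal 2. In each of these last fits the unadjusted p of Zfp704 was under 0.05 and its adjusted p was not (edgeR). The oligodendrocyte marker Bcas1 was also higher in dTPR (1770 ± 396 against 1145 ± 291 CPM, unadjusted p = 0.00448, adjusted p = 0.999, edgeR). The other such marker measured, Gpr17, had a log2 fold change of 0.25 ± 0.32 (unadjusted p = 0.442, edgeR). The part of oligodendrocytes in the Zfp704 values was not tested either. In pieces of tissue, fewer cells of a type and less RNA per cell cannot be told apart.

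The members also differed in their spread between animals. Among the 17 members with a mean count of 50 or more, the coefficient of variation of CPM over the 10 libraries had a median of 24.2%, beside 27.1% over the 978 opposite-strand genes at that level. Zfp507 varied least, at 12.7%, followed by Zfp106 and Zfp335 at 15% each. Zfp593, a ribosome assembly factor, varied most, at 41.1%, with Zfp276 and Zfp955b at 33.3% each. Counting error alone would give 8.19% for Zfp507 and 11.2% for Zfp593. Zfp593 ran from 27.3 CPM in dTPR animal 1 to 150 CPM in wt animal 3, and its other low animals were wt animal 2 (55.0 CPM) and dTPR animal 2 (60.2 CPM). In Zfp652 counting error was 2.37% against a measured 27.5%.

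**Figure D3:**
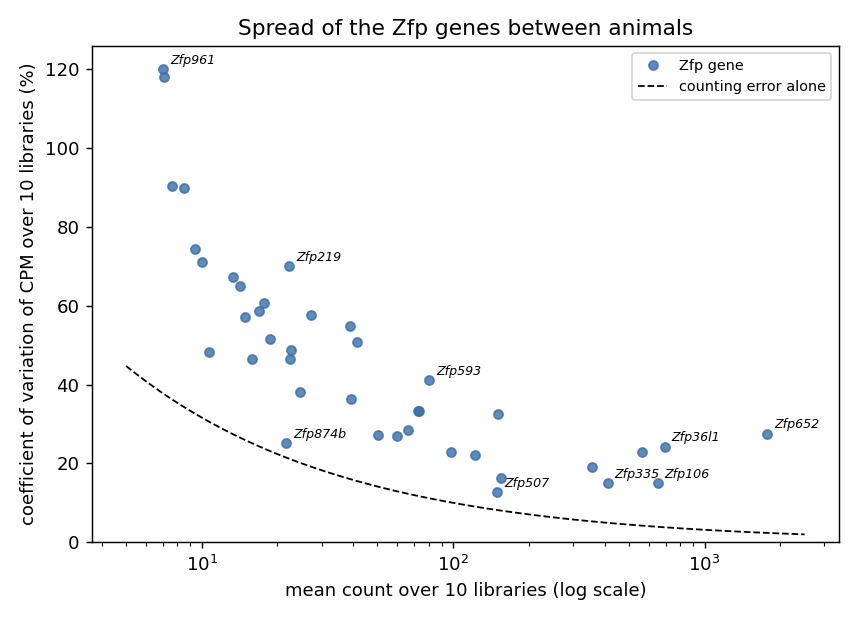
Coefficient of variation of CPM over 10 libraries (vertical, percent) against mean count (horizontal, log scale) for the 40 Zfp genes, with the dashed line giving counting error alone. Every point lies above the line, Zfp874b closest to it at 25.1% against 21.5%, and the rarest genes spread most.

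The genotype comparison asks which transcripts differ when STI1 lacks TPR1. Of the 40 Zfp genes, 35 passed the filter on low counts and were tested together with all 2019 such genes. No member was called at an adjusted p of 0.05 (edgeR), and 0.0% of all tested genes were called. At an unadjusted p under 0.05, 0 of 35 members passed in edgeR, against 2.82% of all genes. DESeq2 called 0 members at either threshold (0.0% and 2.68% of its 5158 genes). Limma-voom called 0 with adjustment (0.0%) and 2, Zfp341 and Zfp704, without it (4.46% of all genes). The groups failed to overlap in 0 of the 40 genes, against 0.528% of the 2654 genes at that level and 0.396% of the tested genes.

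Among the 35 tested members 15 had a positive and 20 a negative log2 fold change (42.9% positive, against 50.2% of all tested genes). The median was -0.07 beside 0.002 for all tested genes, and the range went from -0.89 in Zfp112 to 1.15 in Zfp575. The median SE was 0.39 over the members, 0.24 in the 17 with a mean count of 50 or more, and 0.42 over all tested genes. The 95% interval lay within 2-fold in either direction for 13 members, all of them among those 17. For the other 22 tested members, a 2-fold difference was inside the interval.

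**Figure D4:**
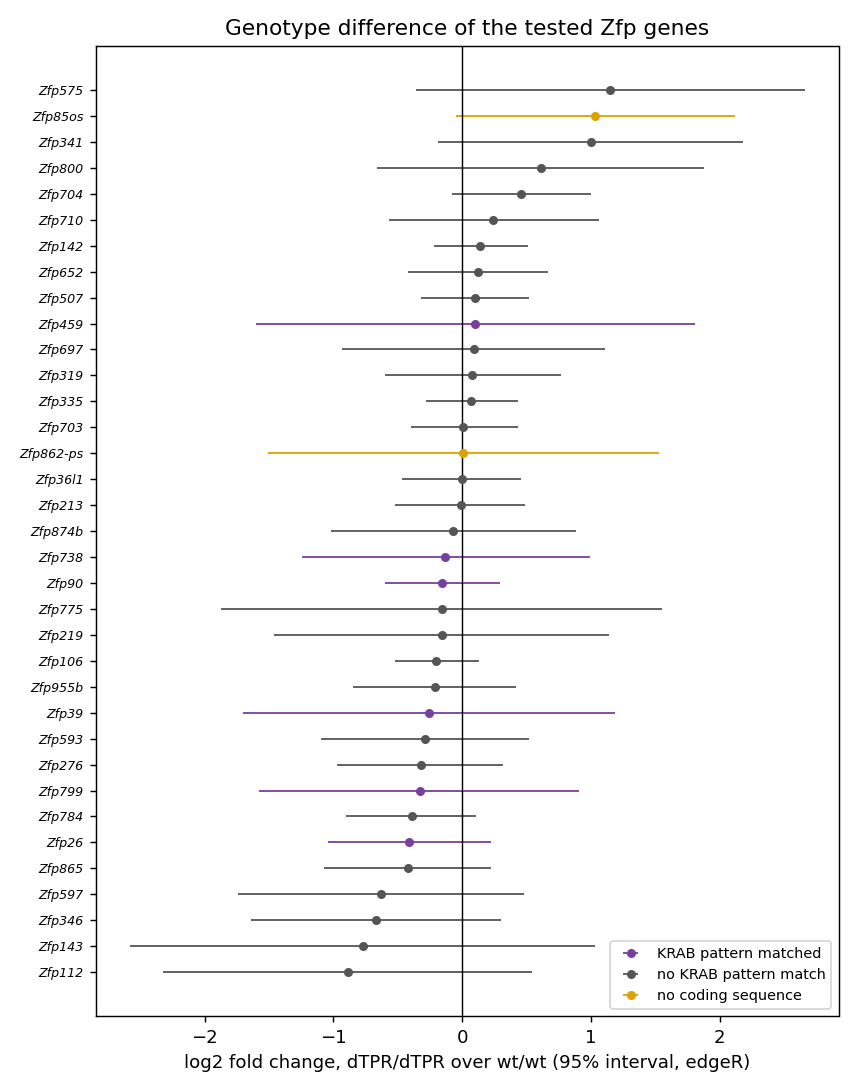
Log2 fold change, dTPR/dTPR over wt/wt, of the 35 tested Zfp genes with 95% intervals from the edgeR fit (horizontal), in order of size, coloured by whether the protein matched the KRAB pattern. Every interval includes 0, and the values run from -0.89 in Zfp112 to 1.15 in Zfp575.

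The 10 members with the smallest unadjusted p included genes of high and of low level. Zfp85os, counted at the ID Zfp85, had 26.4, 14.0, 9.06, 16.5 and 13.2 CPM in wt and 17.4, 31.5, 46.4, 26.0 and 41.0 CPM in dTPR animals 1 to 5. All 5 dTPR animals lay above the wt mean of 15.8 CPM, and the groups overlapped because wt animal 1 lay above dTPR animals 1 and 4. The log2 fold change was 1.03 ± 0.52, with an unadjusted p of 0.0613 and an adjusted p of 0.999 (edgeR).

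Zfp341, known as a transcription factor for STAT3, had 16.7, 42.1, 26.1, 1.5 and 69.4 CPM in wt and 79.3, 57.4, 43.5, 72.5 and 64.7 CPM in dTPR animals 1 to 5. The dTPR animals were all above the wt mean of 31.2 CPM, while wt animal 5 lay among them and wt animal 4 was near 0. Its log2 fold change was 1.00 ± 0.56 (unadjusted p = 0.0944, adjusted p = 0.999, edgeR), and it was 0.70 without wt animal 4. Without wt animal 5 it was 1.47, and Zfp341 then passed an unadjusted p of 0.05 but not the adjusted threshold. Zfp575 had 27.8, 0.0, 12.5, 8.99 and 17.6 CPM in wt and 39.6, 21.5, 17.4, 35.7 and 31.7 CPM in dTPR animals 1 to 5. It was counted at Ethe1, of which 6.67% faces it, and its interval of 0.781- to 6.31-fold was wide.

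**Figure D5:**
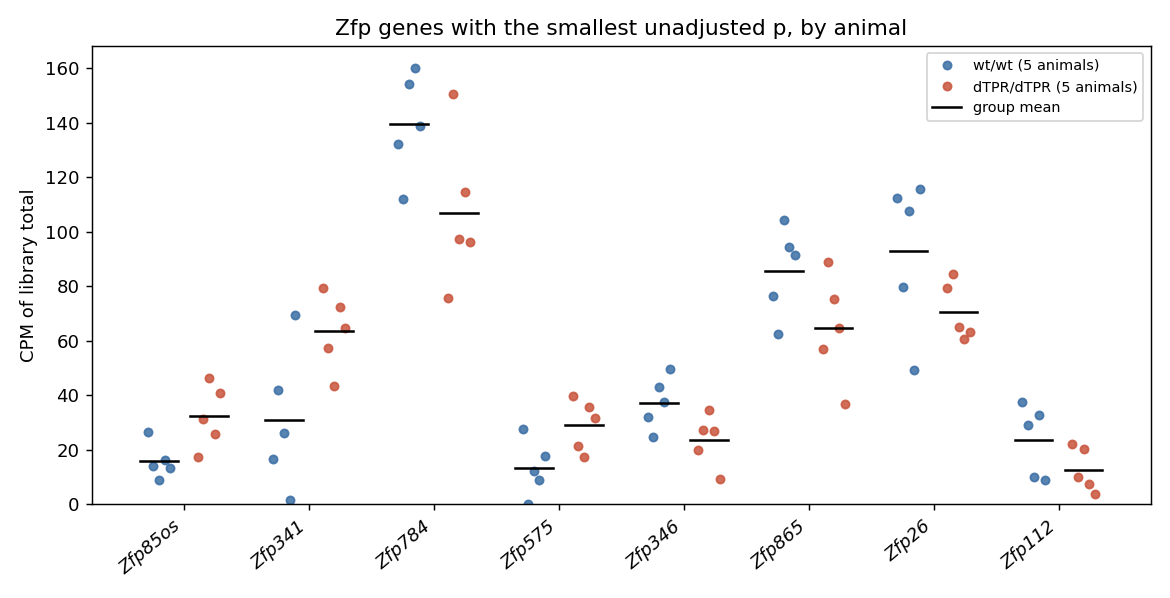
CPM (vertical, from 0) in each of 5 wt/wt and 5 dTPR/dTPR animals of 8 of the 10 Zfp genes with the smallest unadjusted p, the others, Zfp704 and Zfp106, being shown among the abundant genes. Bars are group means; in Zfp85os, Zfp341 and Zfp575 all dTPR animals lie above the wt mean, and in all 8 genes the groups overlap.

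On the negative side, the overlapping pair Zfp784 and Zfp865 had log2 fold changes of -0.39 ± 0.24 and -0.42 ± 0.31. Zfp784 had 132, 112, 154, 160 and 139 CPM in wt and 75.6, 150, 97.2, 115 and 96.4 CPM in dTPR animals 1 to 5, with dTPR animals 2 and 4 inside the wt range. Zfp865 averaged 85.8 ± 16.4 CPM in wt and 64.6 ± 19.5 CPM in dTPR. The double-stranded RNA-binding protein gene Zfp346 (-0.67 ± 0.46), Zfp26 (-0.41 ± 0.30) and Zfp112 (-0.89 ± 0.68) had no dTPR animal above the wt mean. Of these, Zfp26 ran from 60.6 to 84.6 CPM in dTPR and from 49.4 to 116 CPM in wt animals. None of these 5 genes passed an unadjusted p of 0.05 (edgeR), and the groups overlapped in all of them.

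By role, the counts and medians of the members were as follows. Of 18 Zfp genes listed for roles in RNA or protein handling 5 were assigned and 4 were tested, Zfp36l1, Zfp106, Zfp593 and Zfp346. None was called, none had a positive value, and their median was -0.24. Zfp36l1, the smallest of these differences, changed sign with the filter, the tool or the samples used. Of 13 genes listed for neural development 3 were tested, Zfp703, Zfp335 and Zfp704, all with positive values, none called, and a median of 0.07. The sign of Zfp703 turned to -0.01 with upper-quartile factors. Of 19 listed transcriptional regulators 6 were assigned and 2 were tested, Zfp652 and Zfp143. Zfp143, an activator that binds promoters, had 18.1, 5.39, 14.7, 13.5 and 26.4 CPM in wt and 1.24, 4.30, 17.4, 20.6 and 1.32 CPM in dTPR animals 1 to 5, with a log2 fold change of -0.77 ± 0.86. Of 10 KRAB silencers 1 was assigned, Zfp961, and it was not tested.

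Members that matched the KRAB pattern and were tested numbered 6, of which 1, Zfp459, had a positive value, and their median was -0.21. The 27 tested members with a coding sequence and no match had 12 positive values and a median of -0.01. The set without a match may hold genes with a KRAB domain that the pattern missed. None of either set was called, and the difference between the sets was not tested. In the partners of the KRAB domain, 12 of 39 listed corepressor genes were assigned and 4 were tested. Among these 0 were called and 2 had a positive value. The most abundant, Mphosph8 of the HUSH silencing complex, averaged 170 ± 31.8 CPM in wt and 140 ± 11.5 CPM in dTPR, a log2 fold change of -0.29 ± 0.21. The histone methyltransferase gene Suv39h1 stood at 0.57 ± 0.52. The counts assigned to Setdb1 were at 0 in every library. Of 137 other C2H2 genes 14 were tested, with 0 called, 8 positive values and a median of 0.13. Bcl11a, a regulator of cortical projection neurons, was the most abundant at 1715 ± 212 CPM in wt and 1473 ± 448 CPM in dTPR. The smallest unadjusted p in that list, 0.121, belonged to Zbtb37 (log2 fold change 0.35 ± 0.22), and Zbtb12 followed at 1.42 ± 0.90.

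The 5 members that were not tested in the fit were Zfp646, Zfp689, Zfp248, Zfp68 and Zfp961, all with mean counts under 10. An exact permutation test of CPM, two-sided over 252 arrangements, gave p = 0.14, 0.98, 0.56, 0.63 and 0.13 for them in that order, and the smallest p that it can give is 0.0079. The test was meant for genes outside the fit. Among the tested members its smallest values were 0.024 for Zfp85os and 0.048 for both Zfp341 and Zfp575. These are not adjusted over genes, and the share of all genes that low was not computed. Zfp248, Zfp68 and Zfp961 were the members just inside the limit on the mean count, at 7.6, 7.1 and 7.0. Just outside lay Zfp672, Zfp296 and Zfp456, at 4.7, 4.6 and 3.9. Zfp68 showed how such values look by animal: it had 0.0, 12.9, 9.06, 0.0 and 29.8 CPM in wt and 2.48, 12.9, 0.0, 0.0 and 17.2 CPM in dTPR animals 1 to 5. These are a few counts per library, and in Zfp68 5 of the 10 libraries held 3 counts or fewer.

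Promoter sequences were not used to choose the members, which were kept for their counts. The genes they are set beside were not limited to counted genes or to Zfp genes. Whether promoter content goes with the count limit or with the family was not tested. RefSeq promoters of build GRCm38.p6, from 250 bases before to 50 bases after the gene start, were matched by symbol for 30 of the 40 genes and 27025 genes in all. Genes with several promoters were counted where any of them matched. The CCAAT box, searched as CCAAT on both strands, occurred in 21 of the 30 genes and in 41.1% of all genes. The GC box GGGCGG occurred in 13 (43.3%, against 38.2%), and the TATA box TATAAA in 4 (13.3%, against 15.7%). A YY1 motif occurred in 3 (1.17% of all genes), and a heat shock element in 0 of the 30 (0.662% of all). For CpG content, observed over expected, each gene was given the highest value among its promoters. The median of these values was 0.66 in the members and 0.41 over all genes.

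The ACTACA-type motif that Zfp143 is known to bind, also searched on both strands, occurred in promoters of 5 of the 30 genes (16.7%) and of 2.27% of all genes. One match of each gene is printed, since Zfp143 is itself a member. Each is given 5′ to 3′ on the strand of the motif, with the motif in capitals and flanking bases in lower case. These matches describe letters and are not evidence of binding.
Zfp112, chr7:24112163-24112191, minus strand: gggtcatgaACTACATTTCCcagaatttt
Zfp219, chr14:52019700-52019728, plus strand: tcacccgagACTACAAATCCcaggatgcc
Zfp738, chr13:67683548-67683576, plus strand: agggacgggACTACACTTCCcacaagtca
Zfp85os, chr13:67729171-67729199, plus strand: attgttgggACTACATCTCCcacaaatca
Zfp874b, chr13:67484268-67484296, plus strand: gtgctacagACTACATTTCCcacaagtct

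Zfp738, Zfp85os and Zfp874b are the chromosome 13 neighbours described above. The log2 fold changes of the 5 genes were -0.89 in Zfp112, -0.16 in Zfp219, -0.13 in Zfp738, 1.03 in Zfp85os and -0.07 in Zfp874b. They spanned most of the range of the family and none was called.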

How the data were processed

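Per the labels, TRIzol RNA was made into poly(A)-terminated single-end libraries with the SENSE Total RNA-Seq kit. The deposited files hold raw read counts for 53090 gene IDs per library, and TopHat, HTSeq, DESeq2 and GRCm38.p5 are named in the submitters' processing notes. Versions, strand settings and annotation are not given in the sources used here. GENCODE M21 held 52403 of the IDs. The 90% assignment placed 8188 IDs on 7385 genes and 88.0% of counts. CPM used library totals. edgeR 4.0.16 (R 4.3.3, TMM factors, filterByExpr on group, robust quasi-likelihood fits, no covariates) tested genotype, with Benjamini-Hochberg adjustment over all genes. Counts were simulated for 2019 genes and filtered again, and genes dropped by that filter are not in the shares that follow. Among the genes kept, the fit recovered 5.08% of 1.5-fold changes (59 genes), 38.5% of 2-fold (65) and 66.7% of 4-fold changes (57). It also called 5 of 1676 unchanged genes. With fewer changed genes the adjustment would be stricter and these recovered shares lower. Members and lists were chosen with earlier results of these data known. Genes were named by a rule: the 10 highest mean CPM, the 10 smallest p, tested members of the role lists, 3 on each side of the count limit, and 3 at each end of variation. Others were named after their values were seen. Alternatives were other scalings, filters, tools, covariates, assignment shares and left-out animals.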

Additional observations from a re-analysis of the deposited data

Results flagged for a closer look

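In 5 of 80 groups of 5 animals (40 genes in 2 genotypes), 1 animal stood apart by Dixon's 95% criterion on the gap to its nearest neighbour. Chance gives about 1 in 20, which is 4 groups. Zfp652 was low in wt animal 2 at 1572 CPM, with the other wt animals from 2186 to 2344 CPM. Zfp213 was low in the same animal at 117 CPM, with the others from 163 to 168 CPM. Zfp704 was low in dTPR animal 2 at 161 CPM, with the others from 228 to 247 CPM. Zfp319 was high in 1 animal of each group, wt animal 4 at 76.4 CPM (others 55.1 to 60.0 CPM) and dTPR animal 1 at 105 CPM (others 46.2 to 62.7 CPM).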

How the results depend on the processing

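No Zfp gene was called under any of the 24 alternatives. With no low-count filter, edgeR called 2 of 5176 genes, neither of them a Zfp gene. The number of positive values, 15 of 35, ranged from 13 of 36 (without wt animal 5) to 19 of 37 (without wt animal 4) with 1 animal left out. It was 6 of 19 with only IDs that mostly face the gene (as many exon bases facing it as not, or more). Over all 379 genes tested that way 49.1% were positive. This alternative kept 21 members and was chosen after seeing the data, as was leaving out wt animals 2 and 3. Of 22 named genes with a fold change, 15 kept their sign throughout. Zfp36l1 had positive log2 fold changes of 0.03 (no filter), 0.01 (limma-voom, age in the model, no mitochondrial IDs, or 1 CPM required in 5 libraries), 0.10 (striatal level in the model), 0.00 (assignment share of 50%), 0.02 (mostly facing IDs) and 0.18 (without wt animals 2 and 3). Zfp703 had -0.01 (upper-quartile factors), -0.13 (striatal level) and -0.03 (without wt animals 2 and 3). Without those 2 animals Zfp142 had -0.02 and Zfp90 had 0.06, and Zfp90 had 0.01 with the striatal level. Zfp213 had 0.02 (no filter), 0.09 (striatal level), 0.00 (no mitochondrial IDs) and 0.01 (mostly facing IDs). With 1 animal left out the ranges were -0.16 to 0.11 for Zfp36l1, -0.15 to 0.16 for Zfp703, -0.03 to 0.16 for Zfp335, -0.14 to 0.13 for Zfp213 and -0.33 to 0.04 for Zfp955b. The cause of these changes was not tested.

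Animals share only a number between the groups, and same-numbered animals did not deviate together (correlations across genes from -0.108 to 0.097). With the animal number as a replicate block 0 Zfp genes were called, 16 of 35 values were positive, Zfp36l1 had 0.04 and Zfp703 had -0.04. At mean counts under 50 counting error alone exceeds that of the abundant members, and no 95% interval there lay within 2-fold. Zfp genes that no assigned ID faces are not covered.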
